A study of Caenorhabditis elegans with 34 samples.

Results

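The genes described here encode the enzymes that add methyl groups to histones (writers), remove them again (demethylases) and strip acetyl groups from histones and other proteins (deacetylases) in the nematode Caenorhabditis elegans. They were chosen by gene symbol: every gene named set, met, mes, jmjd, utx, rbr, spr, lsd, hda or sir with a number, provided that it had at least 5 counts in at least 26 of the 34 libraries. Of 66 genes with such a symbol, 64 passed this filter, out of 14245 genes that passed in the whole series. The 2 that did not pass were jmjd-1.1, with at least 5 counts in 9 libraries, and set-8, in 1 library. Among the 64 were 36 writers (34 with a SET domain, the catalytic domain of most histone methyltransferases, and the partner subunits mes-3 and mes-6), 11 demethylases (9 of the Jumonji type, spr-5 and lsd-1) and 12 deacetylases (8 of the HDAC type and 4 sirtuins). The other 5, mes-1, spr-1, spr-2, spr-3 and spr-4, share a symbol but are not enzymes of these kinds.

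Methyl groups on histone H3 and H4 carry different information depending on the residue. Methylation of lysine 4 of H3 (H3K4) is typical of active promoters, that of H3K36 of transcribed gene bodies, and that of H3K9 and H3K27 of silenced chromatin, while H4K20 methylation in the worm takes part in X chromosome dosage compensation. Polycomb repressive complex 2 (PRC2), made of MES-2, MES-3 and MES-6, writes H3K27 methylation, and the Jumonji enzymes UTX-1 and JMJD-3 remove it. Several of these enzymes are known for effects on worm lifespan when their genes are mutated, knocked down or overexpressed.

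RNA was sequenced from whole, pooled animals that were sterile through the temperature-sensitive spe-9(hc88) mutation, kept at 25 °C, and sorted by fluorescence in a microfluidic chip on day 5, where the brightest 10% (high) and the dimmest 10% (low) were kept. Animals predicted to be long-lived were high for lin-4p::GFP (6 libraries), high for mir-243p::GFP (4), low for mir-240/786p::GFP (4) or low for autofluorescence (3), and animals predicted to be short-lived were the opposite fraction of the same sorts, with the same numbers. Each GFP reporter was read in its own strain, where lin-4p::GFP marks the posterior intestine, mir-243p::GFP the intestine and mir-240/786p::GFP the spermatheca, and red autofluorescence came from animals without a reporter. The lifespan of the sequenced animals themselves was not observed, since they were lysed for RNA, so that long- and short-lived below stand for predicted classes.

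The 34 libraries held 15.8 to 26.1 M counts (M, 1000000; median 20.9 M), and 3 counts, taken as the floor, corresponded to 0.115 to 0.19 counts per M (CPM) on these totals. Counts of the gfp transgene were higher in every high than in every low library within each of the 3 GFP strains. Sorts 1 and 2 of lin-4p::GFP stood apart from sorts 3 to 6: the summed level of the 36 writers was 1959 to 2020 CPM in the long-lived libraries of sorts 1 and 2 and 2809 to 3001 CPM in their short-lived ones, against 3199 to 3958 CPM in the long-lived and 3641 to 4362 CPM in the short-lived libraries of sorts 3 to 6. Marker genes of other tissues also differed between the predicted classes. Calls of single marker genes follow the rule given below, by which 19% of all genes were called higher and 21.6% lower. The summed level of 16 germ line genes had a median of 5730 CPM (3360 to 8380) in long-lived and 3500 CPM (2260 to 5990) in short-lived animals, and that of 8 intestine genes 1460 CPM (654 to 2190) in long-lived and 422 CPM (143 to 1110) in short-lived animals. The intestine sum was mostly that of asp-1 (1070 CPM in long-lived and 321 CPM in short-lived animals on average), and of the 8 genes 3 were called higher, while act-5 was at -0.38 without being called. The sum of 8 body wall muscle genes was 456 CPM (317 to 1240) in long-lived and 336 CPM (199 to 957) in short-lived animals, with 1 gene called in each direction, and that of 10 sperm genes was 7.78 CPM (3.09 to 32.3) in long-lived and 5.04 CPM (3.41 to 14.3) in short-lived animals, of which 3 genes had enough counts to be tested. The sum of 10 neuron genes was 392 CPM (339 to 449) in long-lived and 503 CPM (423 to 584) in short-lived animals, and that of 7 epidermis genes 214 CPM (154 to 391) in long-lived and 459 CPM (285 to 644) in short-lived animals. Of the 16 germ line genes 4 were called, all higher, while nos-3 (-0.05) and syp-1 (-0.10) were not called. Of the neuron genes 4 were called, all lower, and snb-1 alone averaged 225 CPM in long-lived and 294 CPM in short-lived animals. Of the epidermis genes 4 were tested and 3 called lower, with sqt-3 at 69.6 CPM in long-lived and 260 CPM in short-lived animals. In the other direction col-19 was at 0.40 without being called. No marker was at 0 in all libraries, and the part of tissue composition in the differences below was not tested. In RNA from whole animals, fewer cells of a type and less RNA per cell cannot be told apart.

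The H3K27 demethylase genes jmjd-3.1, jmjd-3.2 and utx-1 were lower in long-lived than in short-lived animals, and the deacetylase gene hda-5 was higher. The catalytic PRC2 gene mes-2 had a fitted log2 difference near 0 (0.01). With the trend of each library over exonic length removed, mes-2 was at 0.18. A member was called at an adjusted p under 0.0001, the threshold of the study, in a fit over all 34 libraries with the biomarker as a covariate. By that rule 22 of the 64 members differed, 8 higher and 14 lower, which is 34.4% of them, against 40.6% of all genes tested (19% higher and 21.6% lower). With the sorts as a block 30 were called (46.9%, against 44.5% of all genes in that fit), and with the trend of each library over exonic length removed 24 were, 12 in each direction (37.5%, against 41.4% of all genes). The median log2 difference was -0.12 over the members and -0.01 over all genes. All 22 calls remained, among 29 (45.3%, against 43.3% of all genes), when sorts 1 and 2 of lin-4p::GFP were left out. At an adjusted p under 0.05 there were 45 calls, 17 higher and 28 lower, while 70.2% of all genes passed that threshold, 34.7% higher and 35.6% lower. In all 17 sorts 6 members were higher and 11 lower in the long-lived library, against 12.5% and 15.6% of all genes.

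Split by role, 14 of 36 writers were called (5 higher, 9 lower; median log2 difference -0.11), 5 of 11 demethylases (1 higher, 4 lower; median -0.36) and 3 of 12 deacetylases (2 higher, 1 lower; median -0.04). These were 38.9% of the writers, 45.5% of the demethylases and 25% of the deacetylases, against 40.6% of all genes. The demethylase genes called lower included the X-linked jmjd-3.1, jmjd-3.2 and utx-1, and the median over all X-linked genes tested was -0.31. The summed level of the demethylases was 856 ± 146 CPM in long-lived and 1150 ± 148 CPM in short-lived libraries (SD, n = 17 each). For the writers the sums were 3050 ± 513 CPM in long-lived and 3580 ± 456 CPM in short-lived libraries, and for the deacetylases they were 922 ± 107 CPM in long-lived and 924 ± 70.5 CPM in short-lived libraries (SD, n = 17 each). The deacetylase sums thus differed by much less than their spread, although single deacetylase genes moved in both directions.

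**Figure D1:**
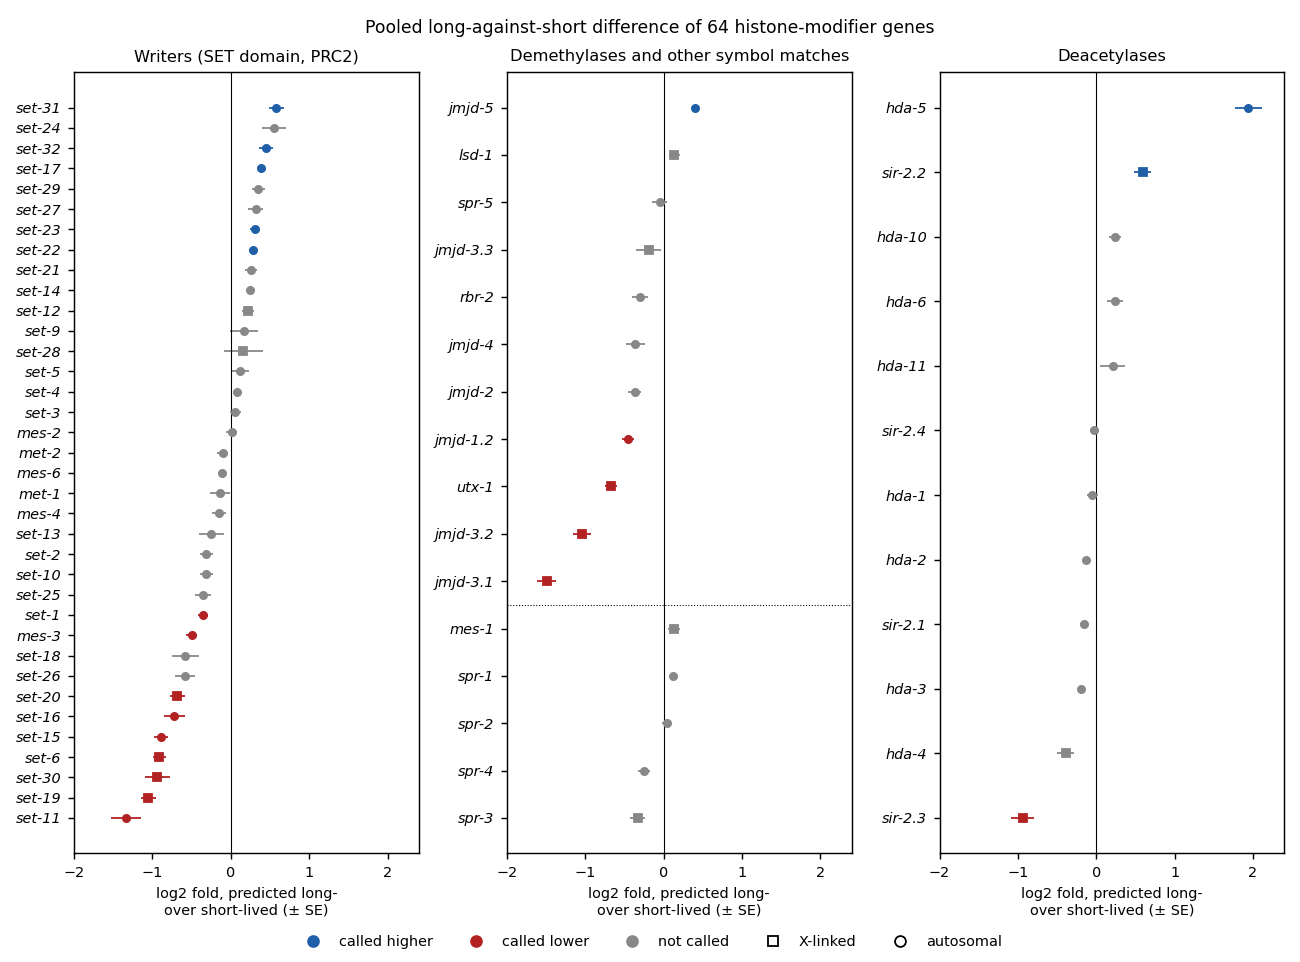
Pooled log2 fold of predicted long- over predicted short-lived animals for all 64 members (points, with bars of 1 SE), ordered by size within each class. Blue points are called higher, red points lower and grey points are not called; squares are X-linked genes. The writers run between -1.34 and 0.58, the demethylases between -1.49 and 0.40, and hda-5 stands alone at 1.94 among the deacetylases.

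Levels per kb of exon spread widely among the members. The highest mean level over the 34 libraries was that of spr-2 (179 CPM per kb), followed by set-1 (170 CPM per kb), the H4K20 monomethylase gene, and hda-1 (139 CPM per kb), a class I deacetylase gene. At the other end stood set-28 (0.551 CPM per kb), set-11 (0.681 CPM per kb) and jmjd-3.3 (1.12 CPM per kb). Differences for those low genes rest on few counts.

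Among the PRC2 genes, mes-2, which encodes the catalytic subunit, was listed at 83.8, 118 and 157 CPM (lowest, median, highest) in the 17 long-lived libraries and at 94.2, 119 and 144 CPM in the 17 short-lived ones. The libraries overlapped almost fully, with a log2 difference of 0.01 ± 0.067 (SE; adjusted p = 0.92), which turned to -0.02 when only library totals were used for scaling. With the trend over exonic length removed mes-2 was at 0.18 (adjusted p = 0.0115), which was not called. The partner gene mes-6 was at 68.1, 98.2 and 112 CPM in long-lived and 73.9, 104 and 115 CPM in short-lived libraries (log2 difference -0.11 ± 0.058, adjusted p = 0.0861). Over 22.7% of its exonic length mes-6 overlaps C09G4.4 on the same strand, so that reads there cannot be assigned to one of them. The third gene, mes-3, fell: it was at 133, 194 and 238 CPM in long-lived libraries, against 208, 260 and 356 CPM in short-lived ones (log2 difference -0.50 ± 0.067, adjusted p = 5.77e-08), lower in 17 of 17 sorts. Its call was lost when the trend over exonic length was removed (-0.29, adjusted p = 2.93e-04). The subunits of this complex therefore did not share a direction past the test, although no test compared them with each other. As PRC2 and MES-4 act in the germ line, the higher germ line marker sum in long-lived animals stands beside these values, and its part was not tested.

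For the H3K4 writers, set-16, an MLL-type gene of 7793 exonic bases (chromosome III, 13643916 to 13656637, WBcel235), was at 119, 258 and 375 CPM in long-lived libraries and at 272, 427 and 650 CPM in short-lived ones. It was lower in 16 of 17 sorts, with a log2 difference of -0.72 ± 0.13 (adjusted p = 1.27e-05). After the trend over exonic length was removed, set-16 was at -0.29 (adjusted p = 4.95e-05), which was still called. The spread of set-16 was wide within groups: lin-4p::GFP high held 141 and 119 CPM in sorts 1 and 2 and 271 to 375 CPM in sorts 3 to 6. In the opposite direction moved set-17, a PRDM9-like H3K4 methyltransferase gene of 984 exonic bases, at 80.1, 89.9 and 103 CPM in long-lived and 57.3, 67.5 and 84 CPM in short-lived libraries. All 17 sorts gave a higher set-17 level in the long-lived library (log2 difference 0.38 ± 0.048, adjusted p = 3.35e-08). The SET1-type gene set-2, which encodes the main H3K4 trimethylase, was not called at -0.31 ± 0.087 (adjusted p = 0.00195). With the length trend removed set-2 was at 0.01 (adjusted p = 0.784).

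The writers of silencing H3K9 methylation gave no common direction. Neither met-2 (log2 difference -0.10, adjusted p = 0.19), the H3K9 mono- and dimethylase gene, nor set-25 (-0.35, adjusted p = 0.00412), the trimethylase gene, was called, although set-25 was lower in 17 of 17 sorts. With the trend over exonic length removed met-2 was at 0.15 (adjusted p = 0.00567) and set-25 at -0.16 (adjusted p = 0.128), neither of them called. The gene set-32, required for heritable silencing by small RNAs, was at 12.6, 16.3 and 21.2 CPM in long-lived and 7.92, 12.3 and 16.8 CPM in short-lived libraries. It rose in the pooled fit (0.45 ± 0.09, adjusted p = 4.9e-05) and was higher in 16 of 17 sorts. Its call was lost in 5 of the 34 fits that left out 1 library, where the adjusted p reached at most 1.17e-04: these left out autofluorescence high replicates 1 or 3, mir-240/786p::GFP high replicates 1 or 3, or mir-240/786p::GFP low replicate 2. The direction was the opposite for set-6, also described as an H3K9 methyltransferase gene (chromosome X, 11970077 to 11974679, WBcel235), was at 9.68, 14.5 and 26.3 CPM in long-lived and 19, 28.2 and 55.2 CPM in short-lived libraries. Within each of the 4 biomarkers the set-6 levels of the classes did not overlap, and the pooled log2 difference was -0.91 ± 0.085 (adjusted p = 4.17e-11). In mir-243p::GFP the classes nearly met, with long-lived libraries up to 24.2 CPM and short-lived ones from 24.3 CPM.

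Of the H3K36 writers, met-1 (-0.14, adjusted p = 0.339), mes-4 (-0.15, adjusted p = 0.115) and set-18 (-0.58, adjusted p = 0.00267) were not called. Removing the trend over exonic length put met-1 at 0.19 (adjusted p = 0.00413), mes-4 at 0.07 (adjusted p = 0.386) and set-18 at -0.52 (adjusted p = 0.00349), none of them called. With the sorts as a block set-18 was called lower (-0.60, adjusted p = 4.94e-06), and it was also called without sorts 1 and 2 of lin-4p::GFP. For H4K20, set-1 fell by 0.35 on the log2 scale (SE 0.065, adjusted p = 1.47e-05; 155, 181 and 282 CPM in long-lived and 173, 253 and 335 CPM in short-lived libraries), whereas set-4, which extends its product to the di- and trimethylated form, was at 0.08 (adjusted p = 0.167). The call of set-1 was lost without lin-4p::GFP high replicate 3 (adjusted p = 1.1e-04) and with library totals only (3.28e-04).

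The paralogs set-9 and set-26 encode nearly identical proteins with a PHD finger and a SET domain. Their reads may have been divided between them in more than 1 way, so that each value is uncertain. Reads for set-26 were at 145, 294 and 430 CPM in long-lived and 294, 431 and 699 CPM in short-lived libraries (log2 difference -0.58 ± 0.13, adjusted p = 2.36e-04, not called). With the sorts as a block set-26 was called (-0.60, adjusted p = 3.21e-06). It was also called by DESeq2, with library totals only and with at least 20 counts required in every library. With the length trend removed set-26 was not called (-0.26, adjusted p = 0.00249). For set-9 the levels were 100, 209 and 502 CPM in long-lived and 106, 182 and 466 CPM in short-lived libraries (0.17 ± 0.18, adjusted p = 0.403). With the length trend removed set-9 was at 0.48 (adjusted p = 4.17e-04), which was not called either. Both were low in sorts 1 and 2 of lin-4p::GFP: set-9 was at 112 and 100 CPM in the long-lived libraries of these sorts, against 342 to 502 CPM in those of sorts 3 to 6. The ratio of set-26 to set-9 CPM, taken after the values had been seen and given without a test, had a median of 1.35 (0.857 to 2.28) in long-lived and 2.17 (1.33 to 4.07) in short-lived libraries, and in all 17 sorts it was the long-lived library that had the lower ratio.

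Of the remaining SET-domain genes, whose marks are less well defined, 5 of those called were lower by more than 0.6 on the log2 scale. The X-linked gene set-19 was at 8.84, 15.2 and 25.5 CPM in long-lived and 21.7, 30.5 and 42.6 CPM in short-lived libraries (log2 difference -1.05 ± 0.095, adjusted p = 2.07e-11), lower in 17 of 17 sorts. Its neighbour set-20 lies 104 bases away on the same strand of the X chromosome and was also lower (-0.68 ± 0.1, adjusted p = 3.88e-07). The groups overlapped for set-19 only through single libraries, such as mir-243p::GFP high replicate 3 at 25.5 CPM. On chromosome IV, set-15 was at 11.7, 19.9 and 29.2 CPM in long-lived and 20.8, 36.4 and 52.6 CPM in short-lived libraries (-0.89 ± 0.09, adjusted p = 2.9e-10). For the X-linked set-30 the levels were 4.78, 8.91 and 13.9 CPM in long-lived libraries, against 8.6, 16.7 and 30 CPM in short-lived libraries (-0.94 ± 0.16, adjusted p = 2.95e-06), and 16 of 17 sorts gave the lower level in the long-lived library. The lowest of these genes, set-11, had 3 to 40 counts per library, with 0.15, 0.324 and 0.674 CPM in long-lived and 0.369, 0.788 and 1.52 CPM in short-lived libraries. Its log2 difference of -1.34 ± 0.19 (adjusted p = 2.72e-07) thus rests on levels near the floor, though all 17 sorts shared the direction.

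Another 3 SET-domain genes were higher. Levels of set-31 were 27.7, 34 and 55.1 CPM in long-lived and 16.9, 23.4 and 36.9 CPM in short-lived libraries (log2 difference 0.58 ± 0.093, adjusted p = 1.57e-06), and 16 of 17 sorts were higher. For set-22 the levels were 60.9, 68.1 and 78.5 CPM in long-lived libraries, against 41.6, 57.9 and 67.5 CPM in short-lived libraries (0.28 ± 0.05, adjusted p = 8.48e-06), with a higher level in 17 of 17 sorts. The gap was widest in mir-240/786p::GFP, where the 4 long-lived libraries held 63 to 69.4 CPM and the 4 short-lived ones 41.6 to 48.6 CPM. The call of set-23 (18.2, 20.4 and 26.6 CPM in long-lived and 14.2, 16.5 and 22.2 CPM in short-lived libraries; 0.31 ± 0.066, adjusted p = 8.71e-05) lay close to the threshold and was lost in 23 of 34 fits that left out 1 library, where the adjusted p was 2.03e-04 at most, with library totals only (0.00477) and with at least 20 counts required in every library (4.28e-04). The 22 writers that were not called had log2 differences between -0.58 for set-18 and set-26 and 0.55 for set-24. All of these, set-18, set-26 and set-24, were called with the sorts as a block (for set-24 at 0.56, adjusted p = 6e-05) and without sorts 1 and 2 of lin-4p::GFP.

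The largest fall among all members was that of jmjd-3.1 (chromosome X, 8571047 to 8575451, WBcel235), an H3K27 demethylase gene known for its part in the mitochondrial unfolded protein response and in the loss of the heat shock response in young adults. In lin-4p::GFP the lowest, median and highest levels of jmjd-3.1 were 20.1, 25.6 and 37.5 CPM in the 6 high, long-lived libraries and 71.2, 92.8 and 111 CPM in the 6 low, short-lived ones. In mir-243p::GFP the 4 high, long-lived libraries held 42.9, 34.4, 75.7 and 51.8 CPM, against 87.9, 83.8, 84 and 101 CPM in the 4 low, short-lived ones. In mir-240/786p::GFP the 4 low, long-lived libraries held 66.2, 43.9, 63.1 and 57.9 CPM, against 143, 197, 178 and 138 CPM in the high, short-lived ones. Thus jmjd-3.1 was lower in the long-lived libraries both where these were the high and where they were the low fraction. The same sign in all 4 biomarkers was found for 70.2% of all genes. For autofluorescence the low, long-lived libraries held 30.9, 28.2 and 37.9 CPM and the high, short-lived ones 95.8, 125 and 133 CPM. Within every biomarker the classes were apart, and they overlapped across biomarkers because mir-243p::GFP high replicate 3 (75.7 CPM) lay above the lowest lin-4p::GFP low library (71.2 CPM). The pooled log2 difference was -1.49 ± 0.12 (adjusted p = 1.21e-12), and 17 of 17 sorts were lower.

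Its paralog jmjd-3.2, also on the X chromosome (14448210 to 14453567), fell as well. The 17 long-lived libraries held 13.6, 19.2 and 43.7 CPM (lowest, median, highest), against 28.6, 51 and 74.5 CPM in the 17 short-lived ones, with a log2 difference of -1.04 ± 0.11 (adjusted p = 5e-10) and a lower level in 17 of 17 sorts. The classes of jmjd-3.2 overlapped within mir-243p::GFP, where the long-lived libraries held 24.3, 20.3, 31.5 and 39 CPM and the short-lived ones 38.5, 35.2, 40.8 and 54 CPM. The third H3K27 demethylase gene, utx-1, lies 7.81 kb from jmjd-3.1 on the same strand. It was at 41.7, 74.6 and 125 CPM in long-lived and 81.6, 122 and 187 CPM in short-lived libraries (-0.67 ± 0.076, adjusted p = 2.39e-09), again lower in 17 of 17 sorts and without overlap inside any biomarker. The remaining paralog jmjd-3.3 was low in both classes, at 1.11 to 5.02 CPM in long-lived and 1.58 to 4.08 CPM in short-lived libraries, and was not called (-0.19 ± 0.16, adjusted p = 0.283).

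**Figure D2:**
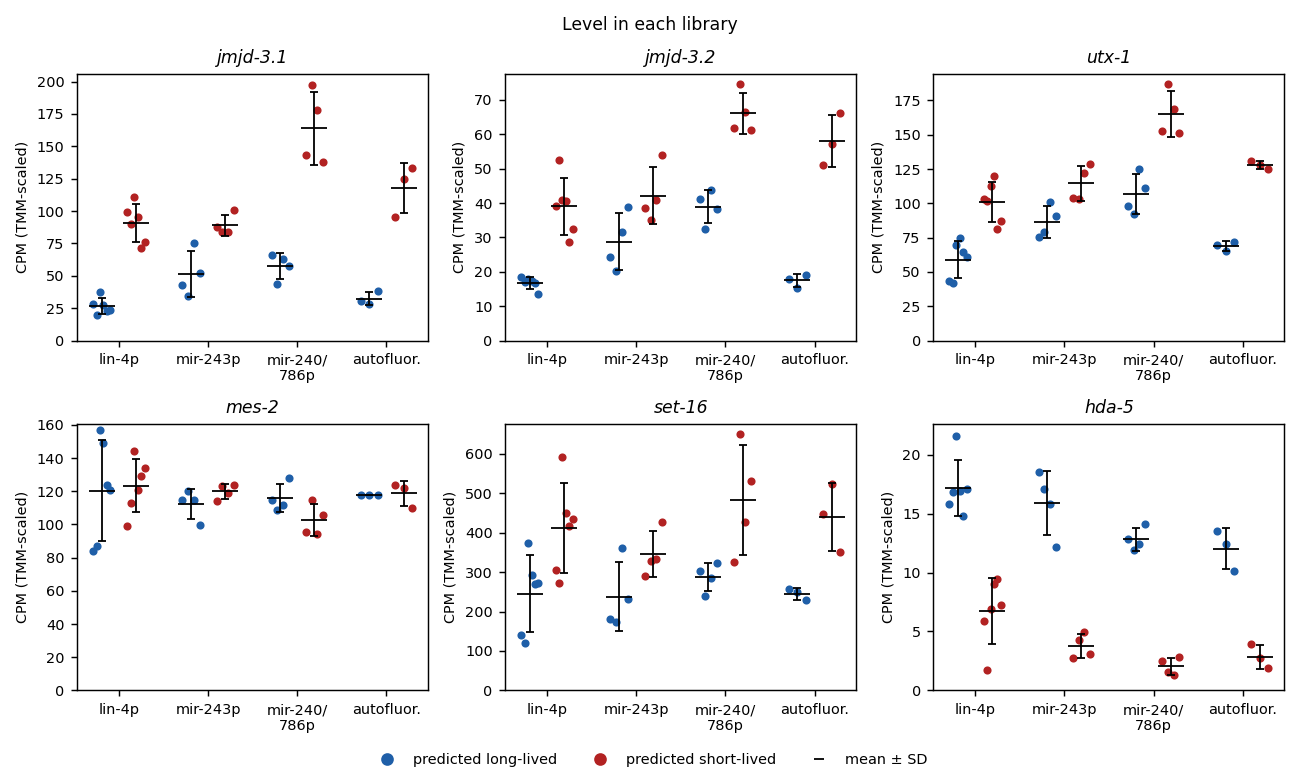
Level (TMM-scaled CPM, linear axes from 0) in each of the 34 libraries for jmjd-3.1, jmjd-3.2, utx-1, mes-2, set-16 and hda-5, by biomarker, with predicted long-lived libraries (blue) left of short-lived ones (red); black bars are the mean and SD. The classes are apart within every biomarker for jmjd-3.1, utx-1 and hda-5, and overlap for mes-2, whose long-lived libraries span 83.8 to 157 CPM and short-lived ones 94.2 to 144 CPM.

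Among the other Jumonji genes, jmjd-1.2, a PHF8-type demethylase gene that acts with jmjd-3.1 in the mitochondrial stress response, was called lower (138, 199 and 290 CPM in long-lived and 213, 271 and 338 CPM in short-lived libraries; log2 difference -0.45 ± 0.074, adjusted p = 2.25e-06). Without the trend over exonic length its difference was -0.24 (adjusted p = 4.39e-04), which was not called. The KDM4-type gene jmjd-2 (-0.37 ± 0.08, adjusted p = 1.35e-04) and the H3K4 demethylase gene rbr-2 (-0.30 ± 0.1, adjusted p = 0.0112) were each lower in 16 of 17 sorts without being called, and both were called with the sorts as a block. Removing the trend over exonic length left jmjd-2 at -0.15 (adjusted p = 0.0234) and rbr-2 at 0 (adjusted p = 0.986), neither of them called. A smaller gene, jmjd-4, overlaps T07C4.12 on the same strand over 12% of its exons and was at -0.36 (adjusted p = 0.0104). The only demethylase gene that rose was jmjd-5, whose product acts on dimethylated H3K36. It was at 30.2, 38.3 and 48.6 CPM in long-lived and 24.3, 28.6 and 36.9 CPM in short-lived libraries, higher in 17 of 17 sorts (0.40 ± 0.051, adjusted p = 2.31e-08). The LSD1-type genes spr-5 (-0.05, adjusted p = 0.65) and lsd-1 (0.14, adjusted p = 0.0581), which remove H3K4 mono- and dimethylation by another chemistry, were not called.

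Among the deacetylases, hda-5 (WBGene00009663; chromosome II, 11799037 to 11802409, WBcel235), a class II gene, gave the largest difference of all members. In lin-4p::GFP its lowest, median and highest levels were 14.8, 16.9 and 21.6 CPM in long-lived and 1.75, 7.11 and 9.45 CPM in short-lived libraries. In mir-243p::GFP the long-lived libraries held 18.5, 17.1, 15.8 and 12.2 CPM and the short-lived ones 2.77, 4.27, 4.92 and 3.08 CPM. The long-lived libraries were several times higher here and in the next biomarkers too. In mir-240/786p::GFP the levels of hda-5 were 12.8, 11.9, 12.4 and 14.1 CPM in long-lived and 2.53, 1.54, 1.33 and 2.81 CPM in short-lived libraries, and for autofluorescence they were 13.5, 12.4 and 10.1 CPM in long-lived and 3.94, 2.71 and 1.93 CPM in short-lived libraries. Every long-lived library (10.1 to 21.6 CPM) lay above every short-lived one (1.33 to 9.45 CPM), and hda-5 was the only member for which this held in either direction, while 1.16% of all genes were so separated upward and 0.969% downward. The fold was 3.84, a log2 difference of 1.94 ± 0.17 (adjusted p = 1.27e-11). It held when any library was left out, with a range of 1.88 to 2.00. The next symbol match on the chromosome, jmjd-1.1, 4.15 kb downstream, did not pass the filter.

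No other HDAC gene was called. The class I genes hda-1 (log2 difference -0.05, adjusted p = 0.546), hda-2 (-0.13, adjusted p = 0.0145) and hda-3 (-0.19, adjusted p = 2.83e-04) differed by small amounts, hda-3 lower in 16 of 17 sorts. The class II genes hda-4 (-0.39, adjusted p = 0.00185), hda-6 (0.24, adjusted p = 0.043) and hda-10 (0.24, adjusted p = 0.00596) went in both directions, and hda-11, the class IV gene, was at 0.21 (adjusted p = 0.249). DESeq2 added a call for hda-3.

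The sirtuin gene sir-2.1, which encodes the worm relative of SIRT1 and has been studied for lifespan, was at 91.8, 123 and 151 CPM in long-lived and 119, 130 and 175 CPM in short-lived libraries. The classes overlapped, and the difference of -0.16 ± 0.046 (log2, adjusted p = 0.00262) was not called. Of the mitochondrial SIRT4-like pair, whose products are not known as histone deacetylases, sir-2.2 rose and sir-2.3 fell, although they lie 422 bases apart on the same strand of the X chromosome. Levels of sir-2.2 were 6.63, 12.2 and 21.4 CPM in long-lived and 6.63, 7.84 and 14 CPM in short-lived libraries (0.59 ± 0.11, adjusted p = 2.63e-05). The highest of these long-lived values, 21.4 and 16.4 CPM, came from sorts 1 and 2 of lin-4p::GFP, and the call was lost with library totals only (adjusted p = 4.83e-04). For sir-2.3 the levels were 0.887, 1.99 and 3.19 CPM in long-lived libraries, against 2.02, 3.58 and 9.11 CPM in short-lived libraries (-0.94 ± 0.15, adjusted p = 2.08e-06), lower in 17 of 17 sorts. Being paralogs, they may share reads, and the treatment of such reads is not given in the sources used here. The ratio of sir-2.2 to sir-2.3 CPM, again taken after the values had been seen, was 3.98 to 14.8 in long-lived and 0.784 to 6.93 in short-lived libraries and was higher in the long-lived library of 17 sorts out of 17. The SIRT6- and SIRT7-like gene sir-2.4 was at -0.03 (adjusted p = 0.65).

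**Figure D3:**
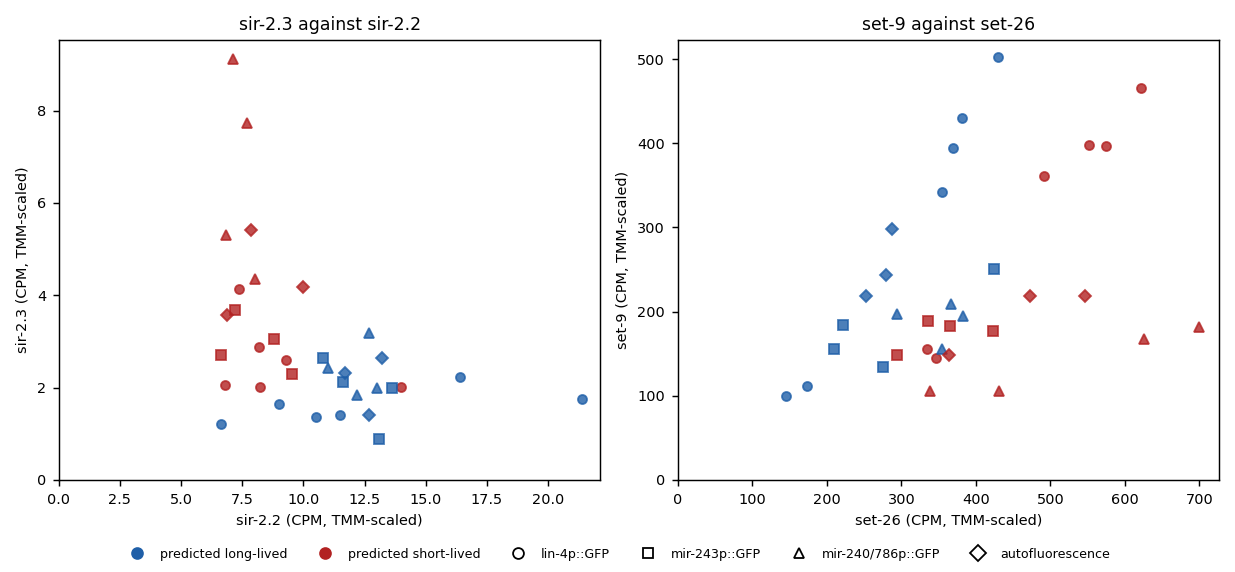
Levels (TMM-scaled CPM) of sir-2.3 against sir-2.2 and of set-9 against set-26 in each of the 34 libraries; blue points are predicted long-lived, red points predicted short-lived, and the marker gives the biomarker. Long-lived libraries lie lower and to the right for the sirtuins (median sir-2.2 to sir-2.3 ratio 6.53, against 2.39 in short-lived libraries) and to the left for the SET-domain pair (median set-26 to set-9 ratio 1.35, against 2.17). The ranges of the set-26 to set-9 ratio overlapped (0.857 to 2.28 in long-lived and 1.33 to 4.07 in short-lived libraries).

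The 5 genes that matched by symbol alone were not called in either direction, and in edgeR 3 had an unadjusted p under 0.05. DESeq2 called 0 of them, whereas mes-1 was called with the trend over exonic length removed, and spr-4 with library totals only. They were mes-1 (0.13), a receptor kinase-like gene of the early embryo, spr-1 (0.12), the CoREST-type partner of SPR-5, spr-2 (0.04), and the zinc finger genes spr-3 (-0.33) and spr-4 (-0.25), all as log2 differences.

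Within single biomarkers, in one fit with 8 group means, 10 members were called in lin-4p::GFP (3 higher, 7 lower), against 14.2% of all genes (4.4% higher, 9.81% lower). In mir-243p::GFP 1 member was called higher and 0 lower, against 0.814% of all genes (0.505% higher, 0.309% lower). The count was 7 in mir-240/786p::GFP (3 higher, 4 lower), against 15.1% (6.46% higher, 8.63% lower), and 5 in autofluorescence (1 higher, 4 lower), against 7.18% (2.03% higher, 5.15% lower). At an adjusted p under 0.05 the counts were 33, 11, 28 and 28 members in this order, against 50.3%, 23.6%, 51.2% and 43% of all genes. The gene hda-5 was called in all 4 biomarkers, with log2 differences of 1.36 ± 0.25 (SE) in lin-4p::GFP animals, 2.08 ± 0.31 in mir-243p::GFP animals, 2.64 ± 0.32 in mir-240/786p::GFP animals and 2.07 ± 0.37 by autofluorescence, and was the only one called in mir-243p::GFP. Leaving out 1 library of the biomarker, the call of hda-5 was lost in 5 of 12 fits for lin-4p::GFP (without high replicates 3 or 6 or low replicates 1, 3 or 6; adjusted p up to 1.88e-04), in 6 of 8 for mir-243p::GFP (all but those without high replicates 3 or 4; up to 4.65e-04), in 0 of 8 for mir-240/786p::GFP and in 5 of 6 for autofluorescence (all but that without high replicate 1; up to 0.00139). Without sorts 1 and 2 its lin-4p::GFP difference was 1.08 (adjusted p = 2.79e-04), which was not called. For jmjd-3.1 the differences were -1.76 ± 0.16, -0.80 ± 0.19, -1.51 ± 0.2 and -1.87 ± 0.23 in the same order, called in all but mir-243p::GFP (adjusted p = 0.00388). The sign was the same in all 4 biomarkers for 46 of the 64 members, or 71.9%, and for 70.2% of all genes. Without sorts 1 and 2 of lin-4p::GFP, 4 members were called in that biomarker (6.25%, against 7.46% of all genes in the same fit), 13 in mir-240/786p::GFP (20.3%, against 25.8%) and 11 in autofluorescence (17.2%, against 16.8%). With the sorts as a block, 13 were called in mir-240/786p::GFP (20.3%, against 23.5%) and 10 in autofluorescence (15.6%, against 15.1%).

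An interaction over the 4 within-biomarker differences asked if the biomarkers differed in the size of the contrast. No member passed an adjusted p under 0.0001 in edgeR and none in DESeq2, with 10 of 64 (15.6%) at an unadjusted p under 0.05, against 18.1% of all genes, and no gene of the whole table passed in edgeR. At an adjusted p under 0.05, where 1.74% of all genes passed, only jmjd-3.2 did (adjusted p = 0.0356). Its log2 difference was -1.22 ± 0.14 in lin-4p::GFP, -0.55 ± 0.17 in mir-243p::GFP, -0.76 ± 0.17 in mir-240/786p::GFP and -1.73 ± 0.2 in autofluorescence. In 14 of 34 fits without 1 library this value was above 0.05, up to 0.0861 without autofluorescence high replicate 3. With the sorts as a block 8 members (12.5%) and 16% of all genes passed 0.05, jmjd-3.1 (adjusted p = 0.0215) and jmjd-3.2 (0.0037) among them.

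**Figure D4:**
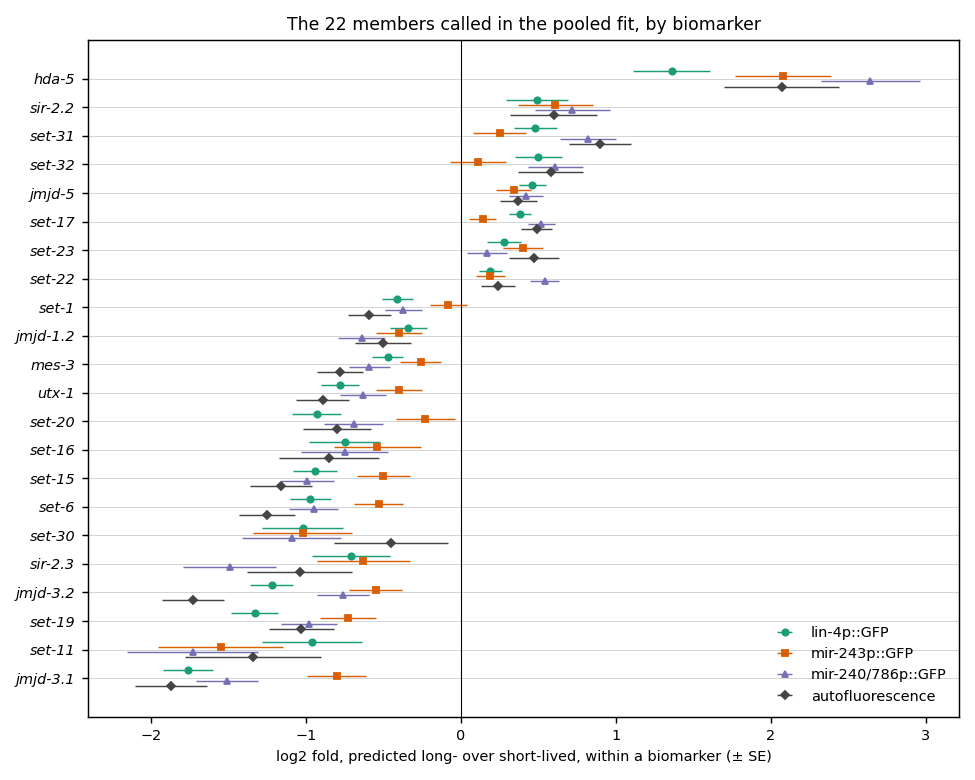
Log2 fold of predicted long- over predicted short-lived animals within each biomarker for the 22 members called in the pooled fit (points with bars of 1 SE; colours and markers give the biomarker). In every biomarker the 8 genes called higher lie right of 0 and the 14 called lower lie left of it. For jmjd-3.1 the mir-243p::GFP value of -0.80 is nearer to 0 than the other values, which run from -1.87 to -1.51.

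Of the 14 members called lower, 8 were X-linked. Of 16 X-linked members 1 was higher and 8 were lower (median log2 difference -0.53), and of 48 autosomal members 7 were higher and 6 lower (median -0.05). The same lean was present in the whole table, where 14.4% of 2053 X-linked genes were higher and 33.8% lower (median -0.31), against 19.9% and 19.5% of 12130 autosomal genes (median 0.03). The X-linked members called lower were jmjd-3.1, jmjd-3.2, utx-1, set-6, set-19, set-20, set-30 and sir-2.3.

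The median difference was lower in classes of longer genes over the whole table. The median log2 difference was 0.13 for genes of under 1 kb of exon, 0.02 for 1 to 2 kb, -0.11 for 2 to 3 kb and -0.22 for over 3 kb, and for the members it was 0.16, 0.07, -0.17 and -0.31 in the same classes. Of 19 members over 3 kb, none was higher and 6 were lower, while over all genes of that length 6.6% were higher and 30.6% lower. Over the 64 members, exonic length and log2 difference gave a Pearson correlation of -0.24 and a Spearman correlation of -0.30, as a description of genes that share the same libraries. After the trend was removed, which moved the median of all genes to 0.07, the calls of jmjd-1.2, mes-3 and set-22 were lost and those of hda-6, mes-1, set-5, set-24 and set-27 were gained. For jmjd-3.1 the difference was then -1.25 (adjusted p = 1.27e-11), and for hda-5 it was 1.99 (adjusted p = 6.68e-12).

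**Figure D5:**
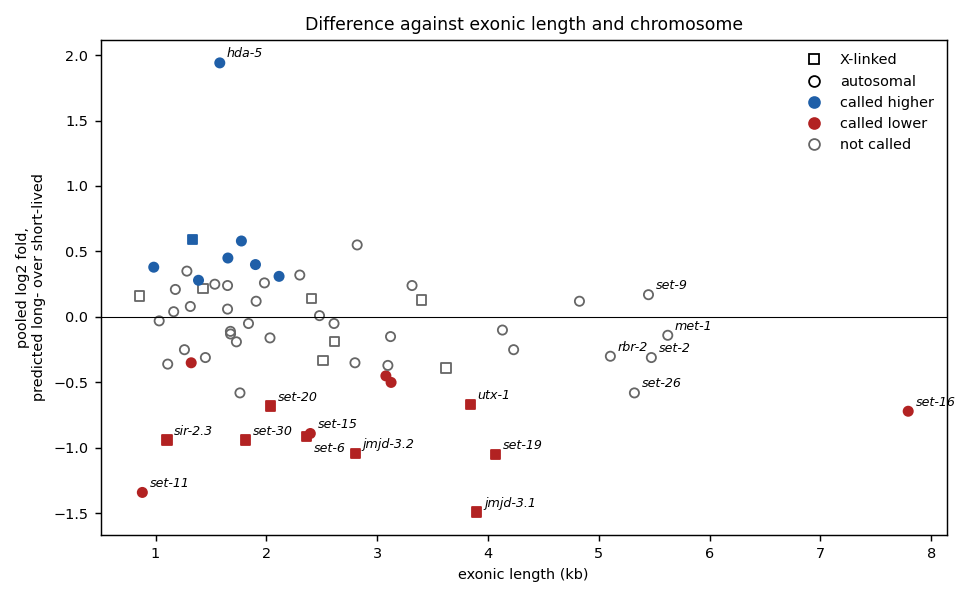
Pooled log2 fold of predicted long- over predicted short-lived animals against exonic length (kb) for the 64 members; squares are X-linked and circles autosomal, and filled blue or red points are called higher or lower. Members over 3 kb hold 6 of the 14 genes called lower and none of the 8 called higher, with set-16 the longest at -0.72.

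Genes that work with these enzymes were taken from 5 lists, of which 39 of 41 genes were tested and 12 called (30.8%), 2 higher and 10 lower (median log2 difference -0.10), while 40.6% of all genes were called, 19% higher and 21.6% lower. Among 8 partners of the H3K4 complexes, the WDR5-type genes went in opposite directions, wdr-5.3 at 119 ± 19.1 CPM in long-lived and 84.4 ± 22.5 CPM in short-lived libraries (SD, n = 17 each; log2 difference 0.52, adjusted p = 3.65e-05) and wdr-5.2 at 13.7 ± 3.5 CPM in long-lived and 28.4 ± 6.97 CPM in short-lived libraries (-1.07, adjusted p = 9.58e-11). In the list of 7 H3K9 methyl readers and MET-2 partners, arle-14 was higher (57.4 ± 5.1 CPM in long-lived and 41 ± 4.5 CPM in short-lived libraries; 0.49, adjusted p = 1.11e-09) and the reader gene lin-61 lower (104 ± 10.1 CPM in long-lived and 138 ± 22.8 CPM in short-lived libraries; -0.41, adjusted p = 1.16e-07). Of 10 genes of the deacetylase complexes NuRD, SIN3 and CoREST 5 were lower and none higher, led by the chromatin remodeller gene chd-3 (198 ± 66.9 CPM in long-lived and 367 ± 95.3 CPM in short-lived libraries; -0.91, adjusted p = 8.78e-08). Of 8 acetyltransferase genes only cbp-1, the worm CBP and p300 gene, was called (450 ± 146 CPM in long-lived and 805 ± 222 CPM in short-lived libraries; -0.83, adjusted p = 4.3e-06). Of 6 tested genes for other histone methyltransferases 2 were lower, with lin-59, an ASH1-like gene, at 116 ± 32.2 CPM in long-lived and 231 ± 63.2 CPM in short-lived libraries (-0.99, adjusted p = 4.03e-11).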

How the data were processed

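Polyadenylated RNA of sorted whole animals was sequenced, and the authors deposited raw read counts per gene for 34 libraries in 8 groups, without normalization. The submitters' processing notes name STAR 2.7.3a, featureCounts and the build WBcel235. How strand and multiply mapped reads were handled is not given in the sources used here. Symbols, positions and exonic lengths came from the Ensembl annotation of that build.

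Only genes that reached 5 counts in 26 or more libraries were tested with edgeR 4.0.16 (R 4.3.3; TMM scaling, quasi-likelihood F-test, Benjamini-Hochberg adjustment over 14245 genes). The pooled model held biomarker and predicted lifespan, and the within-biomarker model held 8 group means. Every adjusted p in the text is from edgeR unless DESeq2 (1.42.0) is named. Log2 differences are predicted long- over predicted short-lived. CPM are TMM-scaled. The edgeR and DESeq2 fits were tested on simulated counts of independent libraries, without sort effects, biomarker differences or a length trend. The block and the removal of the length trend were therefore not tested there.

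The members, the lists and the tests were chosen with earlier results of these data known. Library values and full statistics are given for the called members with the largest differences (up to 6 per direction in writers, up to 3 in demethylases and in deacetylases), for the lowest interaction p, for PRC2, set-9, set-26 and sir-2.1, and for the called gene with the largest difference per direction in each context list. Values for set-1, set-20 and jmjd-1.2 were added after they had been seen.

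The replicate number is that of the sort from which the high and low fractions were both recovered, so that it pairs libraries; deviations from group means correlated between -0.0713 and 0.571 within sorts. No batch term could be fitted, because the sequencing batch in the study's own model is missing from the labels. Separate cultures are not stated for the sorts, and p-values measure the spread between these libraries. Depth was 15.8 to 26.1 M counts per library, and the floor covers counting error only. No sequence is printed, and libraries of unsorted animals were not analysed here. Alternatives were other scaling, DESeq2, other filters, the sort as a block, leaving out libraries and, chosen after seeing the data, a length trend.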

Additional observations from a re-analysis of the deposited data

Results flagged for a closer look

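Among 144 groups of 4 or 6 libraries examined for the 24 members with full values, 7 held a library far from the others, and chance gives about 1 such group in 20. In lin-4p::GFP high, replicate 3 was the highest for set-31 (55.1 CPM, the others 31 to 39.2) and for hda-5 (21.6 CPM, the others 14.8 to 17.1), and replicate 6 was the lowest for jmjd-3.2 (13.6 CPM, the others 16.7 to 18.5). In lin-4p::GFP low, replicate 1 was the highest for set-19 (38.8 CPM, the others 21.7 to 27.7) and for sir-2.2 (14 CPM, the others 6.78 to 9.28). In mir-243p::GFP, high replicate 3 was the highest for set-19 (25.5 CPM, the others 13.3 to 15.2), and low replicate 3 was the lowest for sir-2.1 (125 CPM, the others 130 to 131). The long- against short-lived difference of jmjd-3.2 varied between the biomarkers in the interaction test (adjusted p = 0.0356, edgeR).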

How the results depend on the processing

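In the pooled fits of the alternatives no called member was called in the opposite direction. Of 1132 values of the members given in full, over all of these fits, 1082 kept their direction and their side of the threshold, 36 lost a call, 6 gained one and 8 changed sign. All 8 were those of mes-2, near 0: -0.02 with library totals only, 0.00 with at least 20 counts in every library, 0.00 with the replicate block, and -0.01 to 0.05 when 1 library was left out. Other members were not part of this count. Some of them, such as met-1, met-2 and mes-4, changed sign with the length trend removed. The pooled count of 22 ranged from 20 to 24 when 1 library was left out and was 45 at an adjusted p under 0.05, where it was 21 for the context genes, 33 in lin-4p::GFP, 11 in mir-243p::GFP, 28 in mir-240/786p::GFP, 28 in autofluorescence and 1 for the interaction. Without 1 library the counts were 12 to 14 for the context genes, 7 to 10 in lin-4p::GFP, 0 to 1 in mir-243p::GFP, 3 to 9 in mir-240/786p::GFP (3 without its high replicate 3 or its low replicate 2), 2 to 7 in autofluorescence (2 without its high replicate 3, low replicate 1 or low replicate 2) and 0 for the interaction. DESeq2 gave 26 pooled calls (9 higher, 17 lower), 11 calls in mir-240/786p::GFP and 10 in autofluorescence. It kept all 22 pooled calls and added those of hda-3, jmjd-2, set-26 and set-29. The share of all genes called by DESeq2 was not computed, so these counts have no background beside them. The replicate block, which pairs the fractions of a sort, gave 30 pooled calls, 13 in mir-240/786p::GFP and 10 in autofluorescence, and lost no pooled call. Leaving out sorts 1 and 2 of lin-4p::GFP gave 4 calls in lin-4p::GFP, 13 in mir-240/786p::GFP and 11 in autofluorescence. Fits on the libraries of 1 biomarker alone gave 3 calls in lin-4p::GFP (4.69%, against 1.97% of all genes) and 0 in mir-243p::GFP (against 0.372%). They gave 10 in mir-240/786p::GFP (15.6%, against 16.6%) and 0 in autofluorescence, where no gene of the table was called. Removing the length trend, an alternative chosen after seeing the data, gave 2 calls in mir-240/786p::GFP (3.12%, against 16.1% of all genes in that fit). The calls of set-6, set-15, set-17, set-19 and set-22 were lost there. The cause of these changes was not tested. Depth limits set-28 (2 to 22 counts per library), set-11 (3 to 40) and hda-11 (16 to 78) most.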
